A study of Rattus norvegicus with 6 samples.

Results

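DNA glycosylases are the enzymes that find a damaged or wrong base in DNA and cut it from its sugar, and they open base excision repair. In this RNA sequencing of NRK-52E cells they were taken by gene symbol from the deposited table of counts, in which all 10 symbols asked for (Ung, Tdg, Smug1, Ogg1, Mutyh, Nthl1, Mbd4, Neil1, Neil3 and Mpg) had 1 row each, out of 18930 genes. NRK-52E cells are a long-established rat kidney epithelial line, labelled WT. The 3 Control samples were vehicle-treated cells, and the 3 STZ samples were cells kept for 24 h in 10 mM streptozotocin (STZ), an alkylating nitrosourea that carries a glucosamine group. STZ was dissolved in dimethyl sulfoxide. No source says whether replicates came from separate cultures, so the errors below describe the spread between these samples, which may be technical. The family was chosen by the log2 fold change of Ung, which was among the largest falls between these same groups, and was filled up by name with the other enzymes of its class. The differences between STZ and Control in these 10 genes are therefore a description and not tests.

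After excision by a glycosylase, an endonuclease cuts the empty site, a polymerase fills it and a ligase seals it. The family covers 4 protein folds. Ung, Tdg and Smug1 share the uracil-DNA glycosylase fold, Ogg1, Mutyh, Nthl1 and Mbd4 the helix-hairpin-helix fold, Neil1 and Neil3 the Fpg/Nei fold, and Mpg has a fold of its own. Uracil is removed by Ung, by Smug1, and opposite guanine also by Tdg and Mbd4. Oxidized guanine is removed by Ogg1, and the adenine paired with it by Mutyh. Oxidized pyrimidines are substrates of Nthl1 and the Neil enzymes. Mpg is the glycosylase for purines alkylated on the ring, the kind of lesion that methylating agents make.

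Total counts lay between 10430924 and 15191349 reads per sample, and replicates were close (common biological coefficient of variation 3.25%). Counts were scaled by edgeR's TMM method and are given as normalized counts, that is, reads adjusted to the mean library size. Of the labelled cell type's markers, Krt8, a keratin of simple epithelia, had 11691 to 24040 reads, and Cdh1 had 16 to 35. Their sum with the other epithelial markers, nearly all of it Krt8, was 13761 to 14687 normalized counts in Control and 19906 to 20109 in STZ, without overlap. Cdh16, Krt18, Pax8 and Cldn4 had at most 4 reads in any sample, Epcam had no row, and 5 of 5 proximal tubule markers had at most 10 reads. Among markers of other cell types, the endothelial ones had at most 9 reads. Of the leukocyte markers, Ptprc had at most 1 read, Cd68 had 7 to 29 and Itgam had no row, and their sum was 7.92 to 24.6 normalized counts in Control and 22.4 to 26.2 in STZ. The summed fibroblast markers (Pdgfra, Pdgfrb, Col1a1, Col3a1) reached 1239 to 1382 normalized counts in Control and 698 to 831 in STZ. The part of these cells or genes in the results below was not tested. In bulk RNA, fewer cells of a kind and less RNA per cell cannot be told apart.

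Ung, the enzyme that removes uracil from DNA, had far less RNA in STZ-treated cells, and the other 8 glycosylases tested lay between -0.39 and 0.21 on the log2 scale. Of the 9 members with enough reads to be fitted, 4 (Ung, Tdg, Mbd4 and Mpg) were lower with STZ and 0 higher when the adjusted p-value had to be under 0.05, as given by the quasi-likelihood test of edgeR with adjustment over all 11870 genes tested. This threshold alone was passed by 50.9% of all genes, 25.9% higher and 25.1% lower. With an absolute log2 fold change over 1 also required, only Ung of the 9 passed, against 3.37% of all genes, 2.26% in the higher and 1.11% in the lower direction. The median log2 fold change of the 9 members was -0.25, against -0.01 over all genes tested.

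Because the largest difference lay in Ung, the start of that gene is shown first, followed by those of Nthl1, the other member whose window holds 1 of the 4 E2F-type variants searched, and of Alkbh2, the gene next to Ung. Each is 250 bases before to 50 bases after the annotated start, 5′ to 3′ on the gene's own strand, from RefSeq on the GRCr8 build. Capitals mark TTTCCCGC, TTTCGCGC, TTTGCCGC or TTTGGCGC on either strand, letters that E2F factors of the cell cycle are known to bind.
Ung, chr12:48153996-48154295, minus strand: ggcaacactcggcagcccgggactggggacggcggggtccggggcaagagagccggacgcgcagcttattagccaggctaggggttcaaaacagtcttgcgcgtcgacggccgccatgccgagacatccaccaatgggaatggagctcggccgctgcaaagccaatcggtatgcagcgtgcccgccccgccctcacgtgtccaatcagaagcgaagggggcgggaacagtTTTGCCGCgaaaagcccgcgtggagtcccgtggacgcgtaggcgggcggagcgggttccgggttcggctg
Nthl1, chr10:14160084-14160383, plus strand: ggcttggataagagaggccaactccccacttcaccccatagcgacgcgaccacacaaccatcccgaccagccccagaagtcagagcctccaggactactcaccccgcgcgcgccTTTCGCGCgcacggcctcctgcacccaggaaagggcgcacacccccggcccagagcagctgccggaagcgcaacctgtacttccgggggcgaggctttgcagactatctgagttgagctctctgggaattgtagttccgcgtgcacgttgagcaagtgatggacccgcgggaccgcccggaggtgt
Alkbh2, chr12:48156604-48156903, plus strand: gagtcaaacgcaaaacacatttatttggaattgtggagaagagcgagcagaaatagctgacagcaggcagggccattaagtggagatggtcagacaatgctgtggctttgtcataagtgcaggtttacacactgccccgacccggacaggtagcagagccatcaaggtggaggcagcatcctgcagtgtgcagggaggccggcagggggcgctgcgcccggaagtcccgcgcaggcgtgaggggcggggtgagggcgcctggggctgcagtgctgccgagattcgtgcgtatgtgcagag

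Windows were found for 8 of the 10 members, with none for Smug1 and Neil3. At least 1 of the E2F-type variants stood in 2 of these 8, TTTGCCGC in Ung and TTTCGCGC in Nthl1, and in 2.14% of all 33469 windows of this length. In Ung the match began at position -20 and in Nthl1 at position -136, counted from the annotated start. The window of Ung was the most GC-rich of the 8, with 67.0% G or C and 35 CpG, against medians of 51.7% and 7 over all windows. It also held a CCAAT box (letters CCAAT), which was found in 6 of the 8 members and in 37.5% of all windows. A GC box, GGGCGG, stood in 5 of the 8 members, Ung among them, and in 33.1% of all windows. An E-box, CACGTG, stood in Ung alone of the 8, against 6.42% of all windows. The cyclic AMP response element TGACGTCA was present in Tdg alone, against 1.83% of all windows. A p53 half-site was matched in Mutyh and Neil1, and in 7.98% of all windows. All were searched on both strands. A match is a description of letters, not of binding.

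In the order of their replicate numbers, the Control samples held 286, 259 and 298 normalized counts of Ung and the STZ samples 69.7, 82.2 and 68.9. All STZ samples lay far below all Control samples. The means were 281 ± 19.9 (SD, n = 3) and 73.6 ± 7.45 (SD, n = 3), so that STZ-treated cells held 26.2% of the Control level. The log2 fold change was -1.95 (standard error 0.11, 95% interval -2.17 to -1.72), and 5 of 11870 genes had a lower one. The depth behind these values was 229 to 307 reads of Ung in a Control library and 76 to 83 in an STZ library. Ung gives rise to a nuclear and a mitochondrial form of the enzyme, and counts per gene do not separate them. The GRCr8 annotation lists 2 pseudogenes of Ung, and since only uniquely mapped reads were counted, reads that match them equally would be missing from both groups.

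The other uracil-excising enzymes differed less between the groups. Tdg, which removes thymine and uracil opposite guanine and also bases made during DNA demethylation, had 1799, 1818 and 1904 normalized counts in Control and 1514, 1535 and 1580 in STZ. The groups did not overlap, but the difference was small, with a log2 fold change of -0.25 (standard error 0.04). Tdg has 3 annotated pseudogenes, and its span overlaps that of Glt8d2, a gene with few reads, so its counts are less certain than those of a gene with no copy. Smug1, which removes uracil and some oxidized pyrimidines, had 282, 322 and 337 normalized counts in Control and 319, 348 and 297 in STZ. The groups overlapped, with a log2 fold change of 0.02 (95% interval -0.14 to 0.19). Mbd4, a methyl-CpG binding protein that excises thymine and uracil opposite guanine, had 116, 104 and 117 normalized counts in Control and 86.0, 105 and 80.6 in STZ. STZ replicate 2 lay within the Control range, and the log2 fold change was -0.33 (standard error 0.14).

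**Figure D1:**
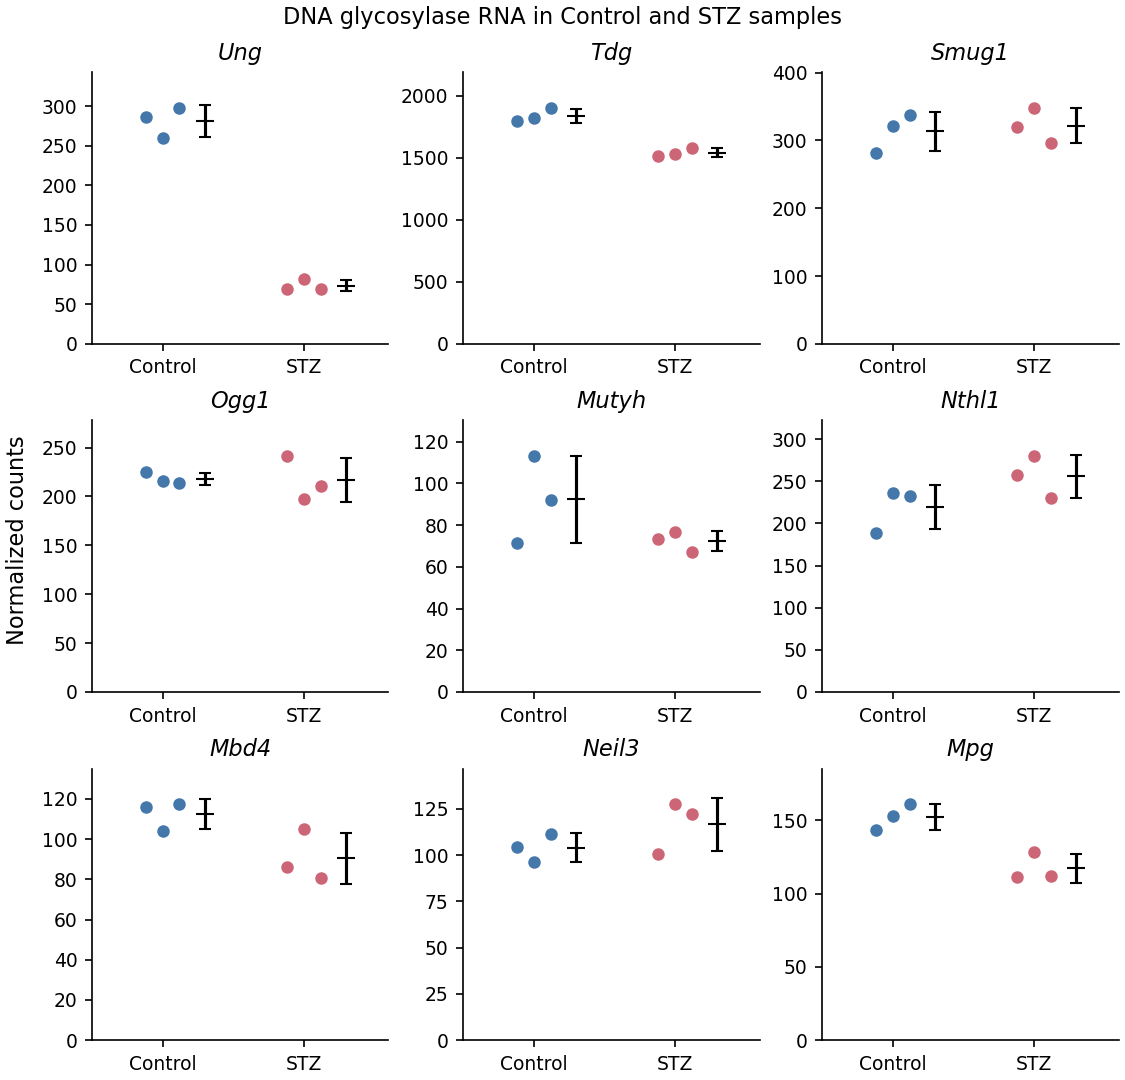
Normalized counts (vertical axes, each from 0) of the 9 glycosylases tested, by group, with 1 point per sample and the mean with its SD beside them. In Ung the 3 STZ samples sit between 68.9 and 82.2 and the 3 Control samples between 259 and 298, while in Smug1, Ogg1, Mutyh, Nthl1, Mbd4 and Neil3 the groups overlap.

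Mpg, the alkylation glycosylase, was lower after the alkylating agent. It had 143, 153 and 161 normalized counts in Control and 111, 129 and 112 in STZ. The groups did not overlap, and the STZ mean was 77.0% of the Control mean, with a log2 fold change of -0.39 (standard error 0.12, 95% interval -0.62 to -0.15). With Ung and Tdg, Mpg was 1 of 3 members whose groups did not overlap, against 56.3% of all genes tested.

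Of the 2 enzymes that act on oxidized guanine and its pair, Ogg1 differed little, and Mutyh was lower on average without passing the threshold. Ogg1, the glycosylase for oxidized guanine, had 225, 216 and 214 normalized counts in Control and 242, 198 and 211 in STZ. Its log2 fold change was -0.0042 (95% interval -0.19 to 0.19), so a change of the size seen in Ung lies far outside the interval. Mutyh had 71.6, 113 and 92.2 normalized counts in Control and 73.3, 76.8 and 67.3 in STZ. Control replicate 1 lay among the STZ samples, and Mutyh had the widest spread in Control of the 9 members, with a coefficient of variation of 22.5%. Its log2 fold change was -0.36 (standard error 0.16, 95% interval -0.67 to -0.04). This was just outside the adjusted p-value threshold, while Mbd4, at -0.33, was just inside it. The spans of Ogg1 and Camk1, and of Mutyh and Toe1, overlap on opposite strands, and whether featureCounts used the strand is not given in the sources used here.

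Nthl1 and Neil3 had the highest fold changes of the family, and neither passed the threshold. Nthl1, which excises oxidized pyrimidines, had 189, 237 and 232 normalized counts in Control and 257, 280 and 230 in STZ. Its log2 fold change was 0.21 (95% interval 0.02 to 0.40). Neil3, which acts on oxidized bases in single-stranded DNA and on crosslinks at replication forks, had 104, 96.2 and 112 normalized counts in Control and 100, 128 and 122 in STZ, a log2 fold change of 0.16 (95% interval -0.11 to 0.42). Neil1 was close to absent, with 0, 1 and 0 reads in Control and 0, 2 and 0 reads in STZ. A count of 0 allows up to 3 reads per library, counting error only, and no fold was formed for it. Neil2, the remaining enzyme of this fold and no member here, had at most 2 reads in any sample.

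**Figure D2:**
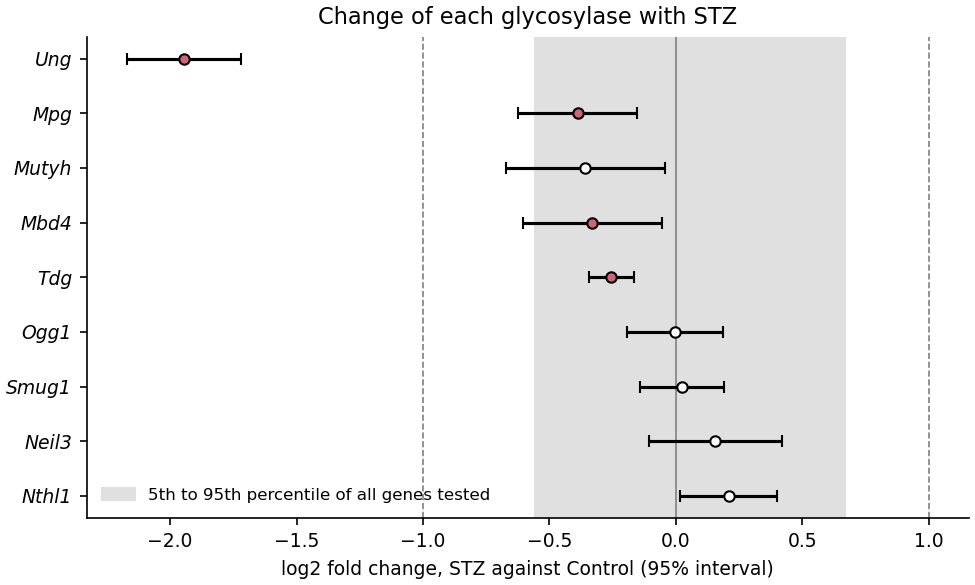
Log2 fold change of each tested glycosylase (horizontal axis, STZ against Control) with its 95% interval, filled where the adjusted p-value was under 0.05. The dashed lines mark a log2 fold change of 1 in either direction. Ung at -1.95 lies outside the grey band that holds the 5th to 95th percentile of all genes (-0.56 to 0.67), and the other 8 members, from -0.39 to 0.21, lie within it.

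The composition of the family was next examined, since the share of a member among the reads of the 10 genes in the same sample does not depend on how libraries are scaled. The 10 genes together had 2741 to 3572 reads in Control and 2666 to 3334 in STZ. Ung took 8.90%, 7.81% and 8.59% of them in Control. It took 2.51%, 2.85% and 2.49% in STZ. Since Ung chose the family, this difference is a description. Read for read, Ung had 0.806 to 1.02 reads per read of Smug1 in Control and 0.218 to 0.236 in STZ. These ratios compare groups only, since the genes differ in length.

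Shares must sum to the whole, so part of any difference in a member's share follows from the falls of other members, mainly Tdg and Ung. Nthl1 went from 6.56% ± 0.64 (SD, n = 3) to 9.10% ± 0.72 (SD, n = 3) of the glycosylase reads, and Smug1 from 9.39% ± 0.55 to 11.4% ± 0.69 (SD, n = 3 each). The share of Tdg, which supplied most of the reads, was 55.2% ± 0.63 in Control and 55.0% ± 1.95 in STZ (SD, n = 3 each). Mpg took 4.57% ± 0.10 in Control and 4.18% ± 0.25 in STZ (SD, n = 3 each). The ratio of Nthl1 to Mpg reads was 1.32, 1.55 and 1.44 in Control and 2.31, 2.18 and 2.05 in STZ, without overlap. These 2 genes had the highest and, besides Ung, the lowest log2 fold change of the family. A ratio of such extremes is likely to separate the groups, so this is a description.

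**Figure D3:**
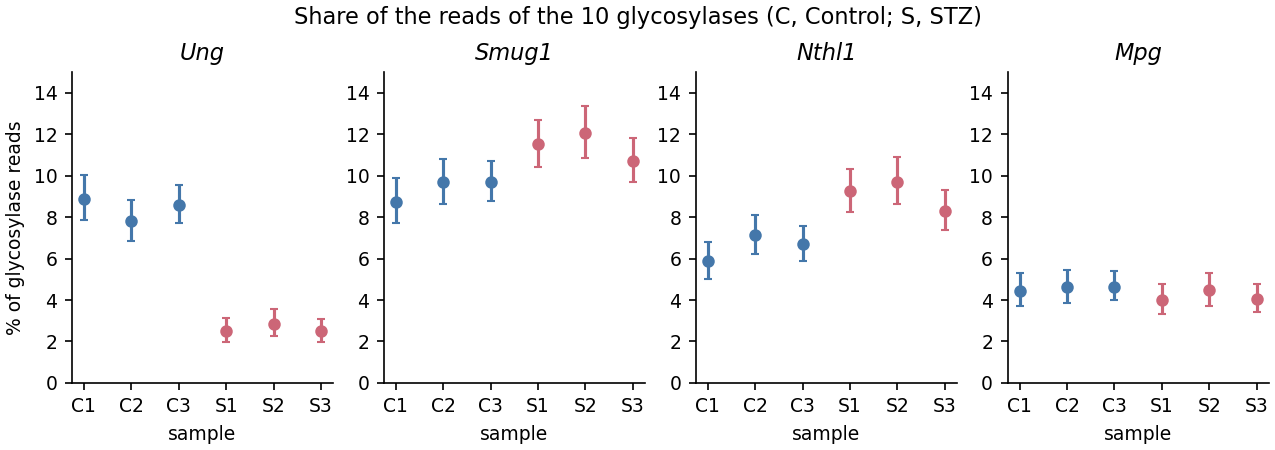
Share of the summed reads of the 10 glycosylases (vertical axes, percent) taken by Ung, Smug1, Nthl1 and Mpg in each sample, with exact binomial 95% intervals that cover counting error only. Ung lies between 7.81% and 8.90% in the Control samples and between 2.49% and 2.85% in the STZ samples.

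The summed normalized counts of the family were 3334 ± 126 in Control and 2808 ± 65.0 in STZ (SD, n = 3 each), a difference of 526. Tdg made up 56.6% of this difference and Ung 39.5%. Without these 2 genes the sum ranged from 1131 to 1265 in Control and from 1120 to 1266 in STZ, so the remaining members overlapped between the groups as a sum.

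The genes that act after a glycosylase were then counted, from a list of 19 base excision repair partners, all of which were tested. By the adjusted p-value, 10 were lower, 2 were higher and 7 did not pass, and 0 of 19 also passed the fold-change threshold. The share past the adjusted p-value, 63.2%, stands beside 50.9% of all genes, and the median log2 fold change was -0.14. The list was chosen with earlier results of these data known, so its p-values are a description and not tests. The smallest belonged to Pcna and Xrcc1, which moved in opposite directions. Pcna, the sliding clamp of replication and long-patch repair, fell from 3455 ± 138 to 2080 ± 54.8 normalized counts (SD, n = 3 each), a change of -0.73 ± 0.04 (SE) on the log2 scale (edgeR, adjusted p = 3.7e-19). Xrcc1, the scaffold of single-strand break repair, rose from 933 ± 47.5 to 1569 ± 124 (SD, n = 3 each), a change of 0.75 ± 0.05 (SE) on the log2 scale (edgeR, adjusted p = 7.6e-16).

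Some partners are named after their values were seen, because they carry the main steps. The log2 fold change was -0.29 for Apex1, the endonuclease that cuts the site a glycosylase leaves, and -0.42 for Parp1 and -0.48 for Parp2, the sensors of the resulting break. It was -0.33 for Lig3, the ligase that works with Xrcc1, and -0.82 for Tdp1, which clears blocked DNA ends, and all 5 passed the adjusted p-value. Polb, the gap-filling polymerase, did not pass, with 0.12 (standard error 0.07). Hmgb1, with a log2 fold change of -0.82, had a mean of only 37.5 normalized counts with STZ (SD 9.76, n = 3) and belongs to a family with many near-identical copies, so its counts are uncertain. Every one of these shifts was smaller in size than that of Ung, which was chosen for its large fall.

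Uracil reaches DNA when cytosine loses its amino group or when dUTP is used in place of dTTP, and 10 genes that set the supply of these nucleotides were counted beside Ung. By the adjusted p-value, 5 were lower and 2 higher, which is 70.0% of the list against 50.9% of all genes, and 0 passed the fold-change threshold. The median log2 fold change was -0.21. Earlier results were also known when this list was chosen, so its p-values are likewise a description. Tk1, the thymidine kinase of dividing cells, fell from 3680 ± 83.1 to 2425 ± 24.2 normalized counts (SD, n = 3 each), a change of -0.60 ± 0.04 (SE) on the log2 scale (edgeR, adjusted p = 4.2e-17). Tyms, which makes thymidylate from dUMP, rose from 1612 ± 32.7 to 2317 ± 77.3 (SD, n = 3 each), a change of 0.52 ± 0.04 (SE) on the log2 scale (edgeR, adjusted p = 6.4e-14). Dut, which destroys dUTP, and Dctd, which makes dUMP, are named after their values were seen. Dut was lower, with a log2 fold change of -0.33, and Dctd with -0.81.

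**Figure D4:**
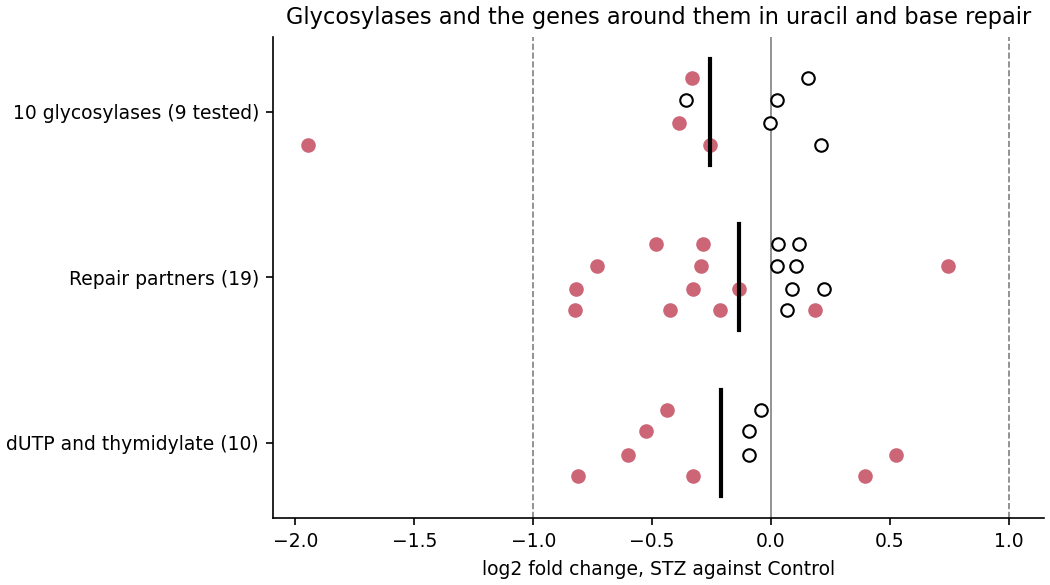
Log2 fold changes (horizontal axis, STZ against Control) of the 9 glycosylases tested, 19 base excision repair partners and 10 genes of dUTP and thymidylate supply, with 1 point per gene, filled where the adjusted p-value was under 0.05, and a bar at the median. Points are spread vertically only to separate them. Ung at -1.95 is the only point beyond a log2 fold change of 1 (dashed lines).

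Ung and Neil3 are known to vary over the cell cycle, and general cell-cycle genes were counted for that reason. Of 20 S-phase genes, the adjusted p-value called 11 lower and 2 higher, which is 65.0% against 50.9% of all genes, with a median log2 fold change of -0.14 and none below -0.51. Of 18 mitosis genes, 15 were lower and 2 higher, which is 94.4% against the same 50.9%, with a median of -0.27 and none below -0.67. Ung, at -1.95, lay below every gene of both lists, but it was chosen for its large fall, so this is a description. Neil3, at 0.16, lay on the other side of 0 from both medians, but its difference did not pass the adjusted p-value. What part the cell cycle had in the fall of Ung was not tested.

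The genes beside the members were examined last, as the 3 nearest named protein-coding genes on each side in the GRCr8 annotation. Of 60 such neighbours, 38 were tested, and 13 of these were lower and 8 higher by the adjusted p-value, which is 55.3% against 50.9% of all genes. The 2 of 38 that also passed the fold-change threshold, against 3.37% of all genes, both lay beside Ung. Alkbh2, the gene next to Ung and itself a repair enzyme that reverses alkylated bases directly, had 82.1, 91.7 and 80.6 normalized counts in Control and 35.3, 41.1 and 44.0 in STZ. Its change was -1.07 ± 0.17 (SE) on the log2 scale (edgeR, adjusted p = 1.3e-06), and the groups did not overlap. Ung and Alkbh2 lie on opposite strands head to head, with their starts toward each other.

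Usp30, a deubiquitinase of mitochondria and the second gene from Ung on that side, rose slightly, by 0.27 ± 0.07 (SE) on the log2 scale (edgeR, adjusted p = 0.0019). Svop, a transporter-like protein of synaptic vesicles and the third, had 35.2, 41.9 and 35.9 normalized counts in Control and 339, 353 and 367 in STZ. Its log2 fold change of 3.23 (standard error 0.12) was known before these neighbours were listed, so its place beside Ung is a description. The spans of Usp30 and Svop overlap, and their reads may not be fully separated. On the other side of Ung, Acacb had at most 1 read in any sample, and Foxn4 and Myo1h had no row in the table.

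**Figure D5:**
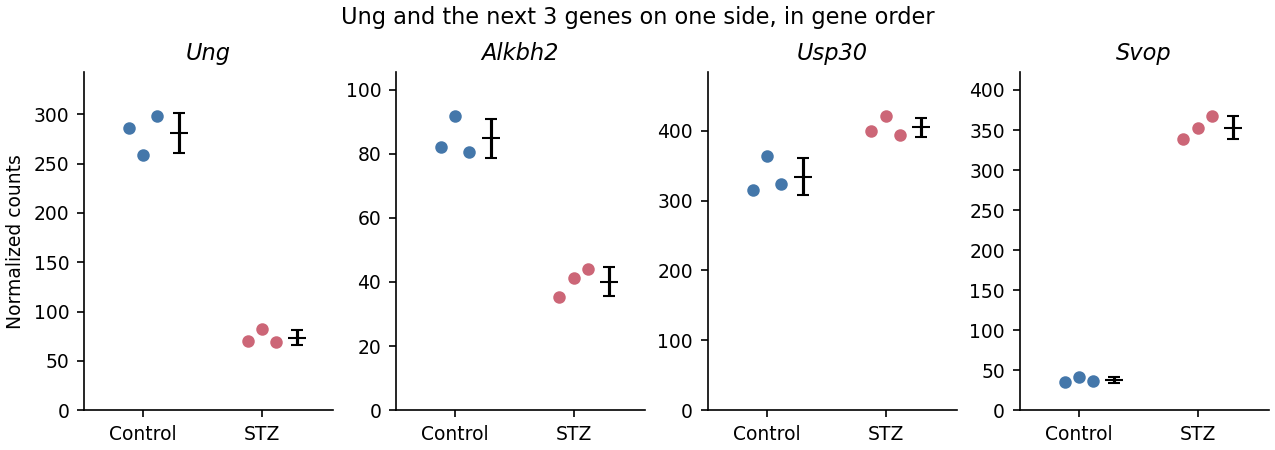
Normalized counts (vertical axes, each from 0) of Ung and the 3 next genes on one side, in the order of the GRCr8 annotation, with 1 point per sample and the mean with its SD beside them. Ung and Alkbh2 are lower in all STZ samples, and Usp30 and Svop are higher.

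The genes whose pattern over the 6 samples was most like that of Ung were found by the root mean square difference of log2 scaled counts, each centred on its own mean, among 9639 named genes with a mean of at least 50 normalized counts. They were Gli1 (0.09), Mvd (0.16), Scara5 (0.16), Adamts20 (0.22) and Mex3b (0.24), where the value in parentheses is that difference. Gli1, a transcription factor of hedgehog signalling, had 278, 246 and 284 normalized counts in Control and 57.9, 84.4 and 68.1 in STZ. As in Ung, its lowest Control value and its highest STZ value were in replicate 2, a likeness that this measure selects for. Mvd, an enzyme of the mevalonate pathway, had 1724, 1839 and 1833 in Control and 574, 603 and 554 in STZ. With 6 samples in 2 groups, this measure mostly finds genes with a fold change near that of Ung.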

How the data were processed

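RNA of NRK-52E cells, 3 Control and 3 STZ samples, was sequenced by the authors from a stranded mRNA library kit in single-end mode. STAR 2.7.10a was used by them to map to Rnor6, the rat reference, and featureCounts to count the reads with a unique position. Raw counts per gene were deposited by the authors, with 1 column per sample. The strand setting and the annotation release are not given in the sources used here.

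From these counts, genes with few reads were removed (filterByExpr), libraries were scaled by TMM (factors 0.988 to 1.02), and all 11870 remaining genes were fitted with the quasi-likelihood test of edgeR 4.0.16 (R 4.3.3), and p-values were adjusted by the method of Benjamini and Hochberg. The study's thresholds were kept, 0.05 for the adjusted p-value and 1 for the size of the log2 fold change. Standard errors follow from the fold change and the root of F. In simulated counts for 11870 genes with 200 changed, 175 were recovered and 13 unchanged genes called. The simulation gave all genes a common dispersion and changed far fewer genes than the 50.9% that passed in the data. Its rates may therefore not hold for the real counts.

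The members and all lists were chosen with earlier results of these data known. The genes named are the 10 members, the 2 smallest p-values in the partner and nucleotide lists, the neighbours of Ung and the 5 genes most like it. A further 9 partner and nucleotide genes were named after their values were seen. With 3 against 3 samples an exact permutation test cannot go below 0.1, so none is given. Other filters, scalings, tests (DESeq2 1.42.0, limma 3.58.1), a replicate block, thinning and leaving out each sample were tried. Neighbours and promoter windows came from RefSeq (GRCr8), whereas the counts used another build. Coordinates are given for promoter windows alone, on GRCr8. Transcript lengths were not used here, so the sums and shares are of reads and not of transcripts. Levels are not otherwise compared between genes.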

Additional observations from a re-analysis of the deposited data

How the results depend on the processing

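Ung kept its direction and its side of both thresholds under all 17 refits, with a log2 fold change between -2.02 and -1.90. It was -1.69 as a share of the glycosylase reads. Over 30 named genes, 491 of 510 refits kept the direction and the side of the adjusted p-value, 7 were weaker, 12 stronger and 0 reversed. All of these changes were in Mutyh (8), Nthl1 (4), Mbd4 (6) and Mpg (1), whose calls therefore depend on the setting. Mutyh had a log2 fold change of -0.50 and passed without Control replicate 1, but had -0.20 and did not pass without Control replicate 2. It also passed in 7 refits on all samples. Mbd4 did not pass with DESeq2's Wald test, after thinning, or without Control replicate 1, Control replicate 3, STZ replicate 1 or STZ replicate 3, where it lay between -0.32 and -0.25, and Mpg did not pass after thinning (-0.27). Nthl1 passed without Control replicate 2 (0.26), Control replicate 3 (0.25) or STZ replicate 3 (0.29), and did not pass without Control replicate 1 (0.12). The number of members past the adjusted p-value, 4, was 3 to 6 over the alternatives, and 3 to 5 in fits that each lacked a sample.

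With the adjusted p-value alone, 4 glycosylases, 12 partners, 7 nucleotide genes, 13 S-phase genes, 17 mitosis genes and 21 neighbours were called, against 1, 0, 0, 0, 0 and 2 with both thresholds. The partners called numbered 1 after thinning and 0 to 1 in fits that each lacked a sample, the 1 without STZ replicate 3. The neighbours called numbered 1 with glmTreat, and 1 to 2 in fits that each lacked a sample, the 1 without STZ replicate 1. The neighbour lost was Alkbh2, whose log2 fold change was as small in size as -0.98 in fits that lacked a sample. DESeq2 and limma-voom likewise called 0 partners at both thresholds. No scaling moved the median of all genes by over 0.1.

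Same-numbered Control and STZ samples had deviations correlated at 0.03, -0.03 and 0.11 over 10341 genes. Deviations from a mean of 3 samples hold counting error, so these weak correlations do not settle whether the shared number is a pairing. In the fit with a replicate block, 1 glycosylase was called at both thresholds, and 6 passed the adjusted p-value, where Mutyh and Nthl1 were added. The members besides Tdg and Neil1 had 61 to 357 reads per sample. Counting error alone, averaged over the samples of a group, came to 5.40 to 11.4% and limits what can be seen of small changes.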
